A study of Mus musculus with 2 samples.

Results

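Of the 2370 gene symbols in a table comparing Trrap-deleted with control embryonic mouse cortex, 9 genes of synaptic vesicles, regulated secretion and neuronal maturation are described here: Slc17a7, Slc17a6, Sv2a, Syn2, Rab3c, Syt4, Scg2, Camk2a and Thy1. They were chosen by symbol, with their values in this table known, and hold 10 of its 2381 rows, since Syn2 has 2 rows. Trrap is a large scaffold on which histone acetyltransferase complexes assemble. The samples were cortices of B6/129 embryos at embryonic day 14.5, 1 library per genotype: a Trrap-deleted library (TrrapF/F NestinCre+) and a control library, entered as wild type but described as heterozygous (TrrapF/+ NestinCre+). Both genotypes thus carried Nestin-Cre, which acts in the neural progenitors of the developing nervous system and their progeny, and the control carried 1 floxed and 1 unfloxed Trrap allele. The number of embryos behind each library is not stated. Values are FPKM, which corrects fragment numbers for transcript length and for the size of the library, so levels of different genes can be set side by side. The table holds only rows that the authors' own test called significant at a q-value of 0.05, and "listed" means having such a row. A gene counts as listed only if its row names no other symbol and is above 0 in both libraries. Of a gene that is not listed nothing can be said. With 1 library per genotype there is no replicate error, no test of the genotypes could be run, and the members, having been picked from this comparison, are described without one.

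A nerve terminal stores transmitter in small synaptic vesicles. Vesicular transporters fill them, integral vesicle proteins and synapsins hold them ready, Rab3 proteins steer them to the release site, and a calcium sensor triggers fusion. Peptides and granins travel in larger dense core vesicles. On the receiving side, CaM kinase II is a main protein of the postsynaptic density of glutamate synapses. At mid-gestation the mouse cortex consists of dividing progenitors and young projection neurons that are still extending axons, and most synapses form only after birth.

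In the Trrap-deleted cortex 7 of the 9 genes were higher, each by at least 2-fold, and 2 were lower, neither by 2-fold. Over all 2376 rows in which neither library was at 0, 58.0% were higher and 42.0% lower, 25.3% were at least 2-fold higher and 13.6% at least 2-fold lower. The values that chose the genes are these same values, so nothing is read from the difference between these shares. The 7 higher genes ranged in fold from 2.29 (Sv2a) to 4.86 (Camk2a), with a median of 2.44-fold, and the median over all higher rows was 1.88-fold. Their summed level was 181 FPKM in the Trrap-deleted library and 73.1 FPKM in the control, and that of all 9 genes was 210.1 FPKM in the Trrap-deleted library and 118 FPKM in the control. The median log2 fold change of the 9 genes was 1.22, and that of all rows with values in both libraries was 0.54. After rescaling to bring the median over all rows to 0, a shift of -0.54, the 7 stayed higher, from 0.65 (Sv2a) to 1.74 (Camk2a), and the 2 stayed lower. The 2-fold statements did not hold under this shift. Sv2a, Slc17a7 (0.66), Syt4 (0.67) and Syn2 (0.74) were then less than 2-fold higher, and Rab3c, at -1.52, was more than 2-fold lower. Rescaling to equal summed FPKM shifted all values by 0.35 the other way and brought Slc17a6 to -0.10. In bulk tissue, fewer cells of a type and less RNA per cell cannot be told apart, and this holds for every value given here.

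**Figure D1:**
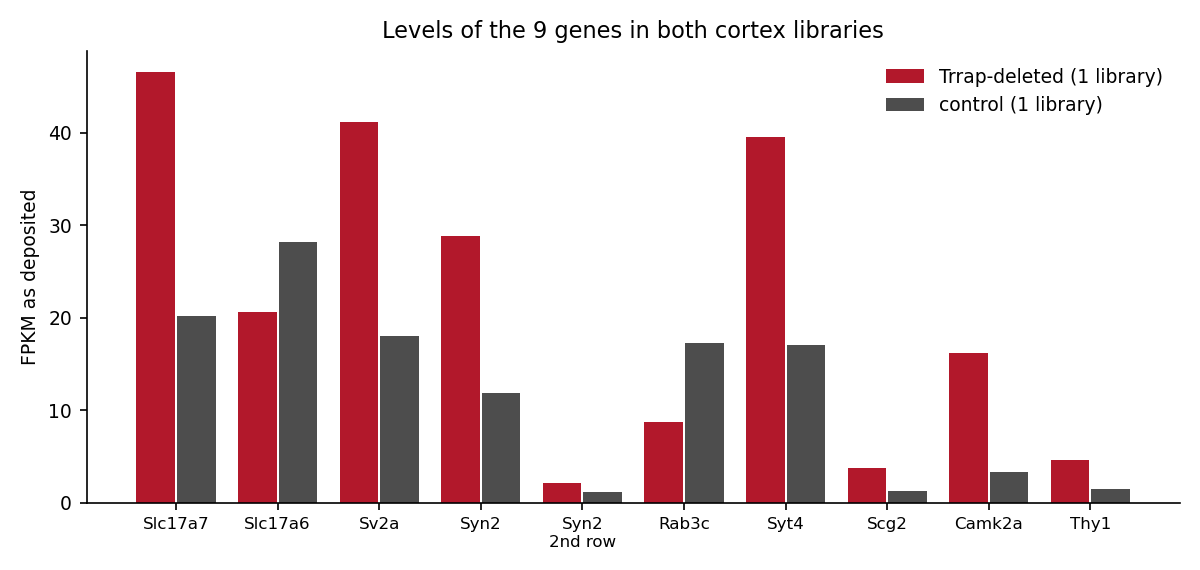
Bars give the deposited FPKM of each gene on a linear axis that starts at 0, in the Trrap-deleted library (left bar, red) and the control library (right bar, grey), with Syn2 shown in both of its rows and no error bars because each genotype had 1 library. Slc17a6 and Rab3c are the genes with the taller bar in the control, and Slc17a7 is the highest in the Trrap-deleted library at 46.5 FPKM.

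The order of the levels differed between the libraries. In the Trrap-deleted cortex Slc17a7, Sv2a and Syt4 were the 3 highest, at 46.5, 41.2 and 39.6 FPKM, followed by Syn2 at 28.8, Slc17a6 at 20.6, Camk2a at 16.2, Rab3c at 8.76, Thy1 at 4.67 and Scg2 at 3.76 FPKM. In the control Slc17a6 was the highest at 28.1 FPKM, followed by Slc17a7 at 20.2, Sv2a at 18.0, Rab3c at 17.2, Syt4 at 17.0, Syn2 at 11.8, Camk2a at 3.34, Thy1 at 1.45 and Scg2 at 1.27 FPKM. Slc17a6 and Rab3c thus stood lower in the order in the Trrap-deleted library than in the control, and Camk2a, Thy1 and Scg2 closed the order in the control. Without replicates it is unknown which neighbours in either order differ beyond their spread.

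The vesicular glutamate transporters, which load glutamate into synaptic vesicles, went in opposite directions. Slc17a7 encodes VGLUT1, the transporter of most mature cortical glutamate synapses (protein-coding, plus strand; chromosome 7, 52419291 to 52431508 on mm9). Its level was 46.5 FPKM in the Trrap-deleted library and 20.2 FPKM in the control, 2.31-fold higher. Slc17a6 encodes VGLUT2, the transporter typical of thalamic and other subcortical neurons and of immature cortical neurons (chromosome 7, 58877200 to 58926495 on mm9). Its level was 20.6 FPKM in the Trrap-deleted library and 28.1 FPKM in the control, a log2 fold change of -0.45. In the authors' deposited table Slc17a6 had a q-value of 0.0386, the weakest of the 9 genes and close to the authors' limit, and Slc17a7 had a q-value listed as 0. The ratio of Slc17a7 to Slc17a6 was 2.26 in the Trrap-deleted cortex and 0.717 in the control. Slc17a7 made up 69.3% of the sum of these transporters in the Trrap-deleted cortex and 41.8% in the control, while the sum itself was 67.1 FPKM in the Trrap-deleted cortex and 48.3 FPKM in the control. Of the 6 other vesicular transporter genes on the list, among them Slc17a8 (VGLUT3) and Slc32a1 (the GABA and glycine transporter), none was listed. Lhx9, a diencephalic transcription factor and the only listed gene of 19 markers of the diencephalon and hindbrain, was at 4.72 FPKM in the Trrap-deleted library and 13.7 FPKM in the control. Its part in the Slc17a6 difference was not tested.

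The promoters of this pair are shown because the genes differed in direction, followed by those of Sv2a, Rab3c and Scg2, which carry the vesicle and secretory results below. Sequences are from RefSeq on GRCm38.p6, 250 bases before to 50 bases after the annotated start, read 5′ to 3′ on the gene's strand. The build differs from that of the expression table. Promoter windows were found for 6 of the 9 genes, which leaves Camk2a, Syt4 and Thy1 without one here, and Slc17a6 and Syn2 have a further annotated start each that is not printed. Capitals mark matches on either strand to 8 motifs. These were the cyclic AMP response element TGACGTCA, the E-box CACGTG that Myc can bind, the E-box CAGCTG and the E-box CAGATG that neuronal bHLH factors can bind, the GC box GGGCGG, the TATA box TATAAA, and the left part AGCACC and right part GGACAG of the RE1 element, which the neuronal gene repressor REST binds.
Slc17a7, chr7:45163671-45163970, plus strand: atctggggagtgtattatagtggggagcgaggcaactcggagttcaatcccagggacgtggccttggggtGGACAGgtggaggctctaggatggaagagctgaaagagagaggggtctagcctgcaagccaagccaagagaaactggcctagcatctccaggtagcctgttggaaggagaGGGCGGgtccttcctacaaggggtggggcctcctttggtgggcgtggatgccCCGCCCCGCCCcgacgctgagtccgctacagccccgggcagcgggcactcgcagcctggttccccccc
Slc17a6, chr7:51621580-51621879, plus strand: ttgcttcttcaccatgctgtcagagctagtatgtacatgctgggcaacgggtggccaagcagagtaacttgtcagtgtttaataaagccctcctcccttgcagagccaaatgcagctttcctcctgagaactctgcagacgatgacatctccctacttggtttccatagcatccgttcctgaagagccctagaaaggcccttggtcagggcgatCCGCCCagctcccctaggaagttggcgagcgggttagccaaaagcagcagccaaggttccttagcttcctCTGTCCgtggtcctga
Sv2a, chr3:96180977-96181276, plus strand: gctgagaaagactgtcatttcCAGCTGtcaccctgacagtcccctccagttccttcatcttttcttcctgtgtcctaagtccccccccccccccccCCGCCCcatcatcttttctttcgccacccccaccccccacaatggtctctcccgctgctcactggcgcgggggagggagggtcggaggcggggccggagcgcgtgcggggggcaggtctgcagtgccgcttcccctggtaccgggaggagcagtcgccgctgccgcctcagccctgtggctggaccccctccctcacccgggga
Rab3c, chr13:110280157-110280456, minus strand: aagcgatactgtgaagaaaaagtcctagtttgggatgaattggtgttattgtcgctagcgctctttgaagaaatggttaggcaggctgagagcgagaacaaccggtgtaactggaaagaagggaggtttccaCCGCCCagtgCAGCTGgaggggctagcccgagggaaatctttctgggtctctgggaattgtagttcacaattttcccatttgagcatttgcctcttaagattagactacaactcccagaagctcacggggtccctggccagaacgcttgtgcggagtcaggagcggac
Scg2, chr1:79439977-79440276, minus strand: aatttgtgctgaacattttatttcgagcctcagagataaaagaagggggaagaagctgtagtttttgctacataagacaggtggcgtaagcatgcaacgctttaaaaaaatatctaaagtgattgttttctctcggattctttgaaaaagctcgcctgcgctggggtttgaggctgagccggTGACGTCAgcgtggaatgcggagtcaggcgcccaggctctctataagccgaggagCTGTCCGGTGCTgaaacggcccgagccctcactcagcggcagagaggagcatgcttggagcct

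The Slc17a7 window held 3 GC boxes, 70, 18 and 13 bases upstream of the start, the last pair sharing 1 base, and 1 GGACAG at 180 bases upstream. The printed Slc17a6 window held 1 GC box, 36 bases upstream, and 1 GGACAG that begins 34 bases downstream. The windows were 63.7% GC with 13 CpG in Slc17a7 and 53.7% GC with 8 CpG in Slc17a6, and the median of all 32851 windows of this length was 52.7% GC with 7 CpG. A GC box is present in 35.7% of all windows and GGACAG in 22.2%, so these are common matches. Sv2a and Rab3c, which differed in direction, each held 1 CAGCTG (16.3% of all windows) and 1 GC box. Among the 6 genes with a window, Scg2 was the only one with TGACGTCA, 68 bases upstream of the start, a match found in 1.79% of all windows. It was also the only one of these 6 with both RE1 parts in 1 window, as 3.88% of all windows have. On the strand opposite to the gene the parts adjoin as AGCACCGGACAG, without the 2 bases that separate them in the usual element, and 3 of the 32851 windows hold that run. The joined form was searched for after the Scg2 window had been seen. The motif CACGTG and the TATA box had no match in the 8 member windows, against 7.15% and 13.6% of all windows. These are matches of letters and say nothing of binding.

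Among proteins of the synaptic vesicle itself, Sv2a and Syn2 were higher and Rab3c was lower. Sv2a encodes a membrane protein found on nearly all synaptic vesicles and the binding site of the antiepileptic drug levetiracetam (chromosome 3, 95985074 to 95999444 on mm9). It was at 41.2 FPKM in the Trrap-deleted library and 18.0 FPKM in the control, 2.29-fold higher. Its paralog Sv2b was at 7.56 FPKM in the Trrap-deleted library and 3.44 FPKM in the control, so that the ratio of Sv2a to Sv2b was 5.45 in the Trrap-deleted cortex and 5.25 in the control. Sv2c was not listed.

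Syn2 encodes synapsin II, a phosphoprotein that ties vesicles to each other in the reserve pool (chromosome 6, 115084918 to 115234726 on mm9). Its stronger row was at 28.8 FPKM in the Trrap-deleted library and 11.8 FPKM in the control, 2.44-fold higher. The weaker row, at the same coordinates, was at 2.13 FPKM in the Trrap-deleted library and 1.12 FPKM in the control, 1.90-fold higher. It amounted to 7.38% of the stronger row in the Trrap-deleted library and 9.47% in the control. The numbers of the rows place them apart: among the 10 listed rows of chromosome 6 nearest in number, the stronger row has 9 genes annotated on the plus strand and 1 without annotation, and the weaker row has 10 on the minus strand. Syn2 is annotated on the plus strand. Timp4, an inhibitor of metalloproteinases, lies inside Syn2 on the minus strand in GENCODE M21 and had no row of its own, and the predicted gene Gm17482 overlaps Syn2 on the plus strand. Whether the weaker row counts reads of Syn2, of Timp4 or of another minus-strand transcript cannot be told from the table, and its value is uncertain. The other synapsin genes, Syn1 and Syn3, were not listed.

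Rab3c encodes 1 of the 4 Rab3 GTPases, which sit on secretory vesicles and bind release-site proteins (chromosome 13, 110844366 to 111071179 on mm9, minus strand). It was at 8.76 FPKM in the Trrap-deleted library and 17.2 FPKM in the control, 1.97-fold lower. The other 3 paralogs were listed and all were higher under each scaling. Rab3a, the main neuronal form, was at 159 FPKM in the Trrap-deleted library and 82.2 FPKM in the control. Rab3d was at 36.0 FPKM in the Trrap-deleted library and 16.9 FPKM in the control, and Rab3b at 9.25 FPKM in the Trrap-deleted library and 2.59 FPKM in the control. Rab3c made up 4.11% of the summed Rab3 level in the Trrap-deleted cortex and 14.5% in the control. In the Trrap-deleted library it lay just under Rab3b, and in the control it lay level with Rab3d. Among other genes of the Rab3 and Rab27 cycle, Rph3a, the effector rabphilin that binds Rab3 on vesicles, was lower as well, at 2.02 FPKM in the Trrap-deleted library and 4.14 FPKM in the control.

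**Figure D2:**
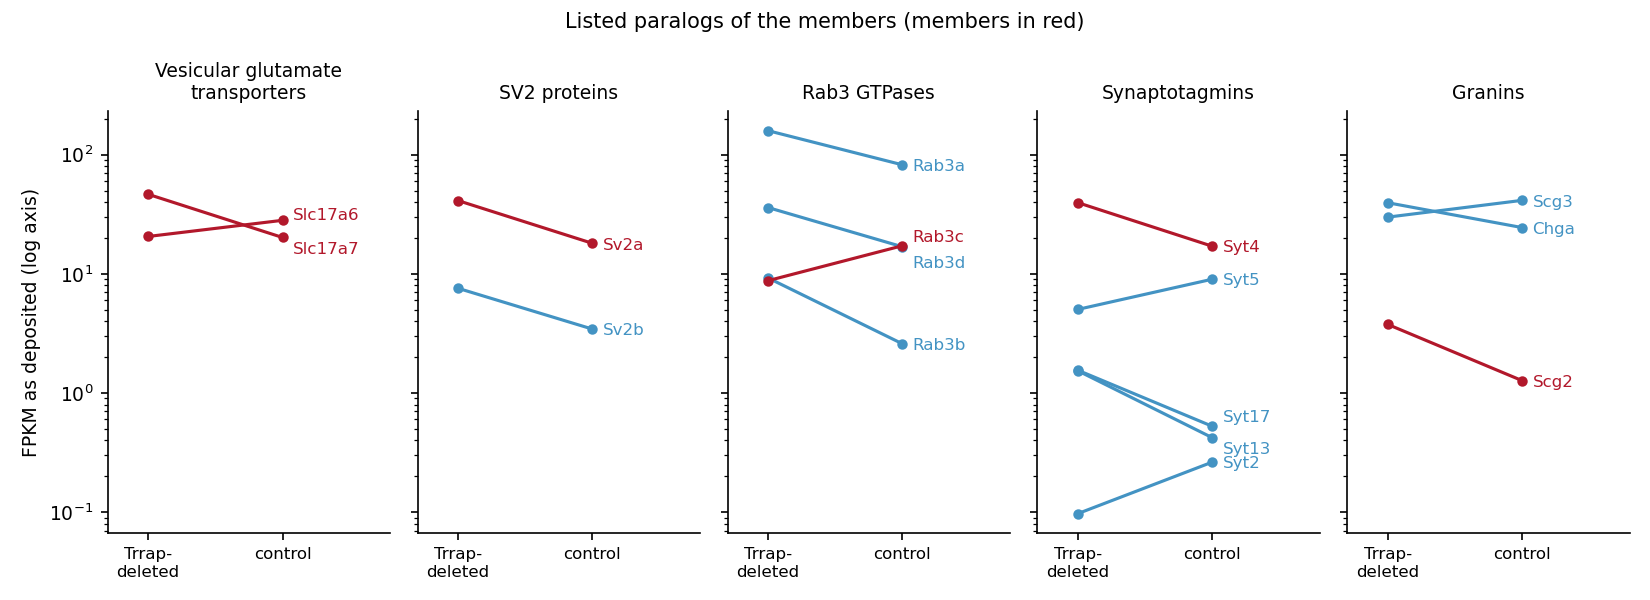
Points give the deposited FPKM on a log axis in the Trrap-deleted library (left) and the control library (right) for the listed genes of 5 families. A line joins the points of each gene. Slc17a7, Slc17a6, Sv2a, Rab3c, Syt4 and Scg2 are in red and their listed paralogs in blue. Syn2, Camk2a and Thy1 are not shown. Slc17a7 and Slc17a6 cross, Rab3c slopes against the other 3 Rab3 genes, and Sv2a and Sv2b run in parallel.

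Both members of the dense core vesicle pathway were higher. Syt4 encodes synaptotagmin IV, an unusual member of the calcium-sensor family that is found on dense core vesicles and in postsynaptic compartments (chromosome 18, 31597462 to 31608753 on mm9). It was at 39.6 FPKM in the Trrap-deleted library and 17.0 FPKM in the control, 2.32-fold higher. A gene annotated antisense to it, Gm26658, overlaps it in GENCODE M21, and the locus in the table is 11292 bases long against 9599 annotated on GRCm38. Since it is not known whether reads were counted by strand, their reads may not have been told apart. Scg2 encodes secretogranin II, a granin of the vesicle core and the precursor of secretoneurin (chromosome 1, 79431244 to 79436665 on mm9). It was at 3.76 FPKM in the Trrap-deleted library and 1.27 FPKM in the control, 2.97-fold higher, and was the weakest of the 9 genes in both libraries.

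Neither family went one way as a whole. Of 17 synaptotagmin genes 5 were listed, 3 higher and 2 lower. Of the 1607 rows within the range of their mean FPKM 67.9% were higher. At a minimum of 5 FPKM in the higher library 1 of 2 synaptotagmins was higher. Syt13 (1.54 FPKM in the Trrap-deleted library, 0.421 FPKM in the control) and Syt17 (1.55 FPKM in the Trrap-deleted library, 0.525 FPKM in the control) were higher at low levels. Syt5, a synaptotagmin of secretory vesicles, was lower, at 5.03 FPKM in the Trrap-deleted library and 9.02 FPKM in the control, and so was the weak Syt2, at 0.0971 FPKM in the Trrap-deleted library and 0.263 FPKM in the control. Syt1, the main calcium sensor of fast release, was not listed. Of 25 genes of dense core vesicles and peptide processing 8 were listed, 6 higher and 2 lower, where 62.9% of the 1341 rows within their FPKM range were higher. At the minimum of 5 FPKM 3 of 5 were higher. Chga, chromogranin A, was at 39.5 FPKM in the Trrap-deleted library and 24.4 FPKM in the control, and Ptprn, the vesicle membrane protein IA-2, at 2.95 FPKM in the Trrap-deleted library and 1.24 FPKM in the control. Scg3, the granin that anchors others to the vesicle membrane, was lower, at 29.9 FPKM in the Trrap-deleted library and 41.4 FPKM in the control, and so was the priming factor Cadps, at 20.2 FPKM in the Trrap-deleted library and 26.1 FPKM in the control. The ratio of Scg3 to Scg2 was 7.95 in the Trrap-deleted cortex and 32.6 in the control.

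Camk2a had the largest fold of the 9 genes. It encodes the alpha subunit of CaM kinase II, a marker of forebrain excitatory neurons that in mice is known to rise strongly after birth (chromosome 18, 61085260 to 61147813 on mm9). It was at 16.2 FPKM in the Trrap-deleted library and 3.34 FPKM in the control, 4.86-fold higher. Among the 718 rows whose mean FPKM lay within 2-fold of that of Camk2a, 6, Camk2a included, had a log2 fold change as high. Camk2a was chosen with this value known, so nothing is read from its rank. The genes of the other subunits, Camk2b, Camk2d and Camk2g, were not listed. Of 21 genes of CaM kinases and calmodulin signalling 4 were listed and all were higher as deposited. At an authors' q-value under 0.01 Camk2a alone was left. The median log2 fold change of the other 3 was 0.57, near the 0.54 of all rows. Nrgn, neurogranin, a calmodulin-binding protein of dendritic spines, was at 1.71 FPKM in the Trrap-deleted library and 0.541 FPKM in the control. Ppp3ca, a catalytic subunit of calcineurin, was at 76.0 FPKM in the Trrap-deleted library and 51.2 FPKM in the control. Camk2n1, an inhibitor of CaM kinase II, was at 8.70 FPKM in the Trrap-deleted library and 6.02 FPKM in the control, and its log2 fold change of 0.53 fell just below 0 when the median of the listed rows was set to 0.

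Thy1 encodes a surface glycoprotein of mature projection neurons, which appears late in neuronal development, and of T cells and some fibroblasts (chromosome 9, 43851467 to 43856662 on mm9). It was at 4.67 FPKM in the Trrap-deleted library and 1.45 FPKM in the control, 3.22-fold higher. Thy1 and Scg2 lay at levels where only larger differences were listed: the smallest fold among rows with a mean FPKM within 2-fold of theirs was 1.38 for Thy1 and 1.41 for Scg2, and 73.1% and 74.7% of those rows were higher. Among them 52 of 428 rows were at least as high as Thy1 and 76 of 387 at least as high as Scg2. For Slc17a7 28 of 708 rows of like level were as high, for Sv2a 34 of 734, for Syt4 27 of 723 and for the stronger Syn2 row 27 of 796, where 55.6%, 55.0%, 55.9% and 58.04% of the rows of like level were higher at all. For the genes that were lower, 111 of 773 rows of like level were as low as Rab3c and 305 of 770 as low as Slc17a6. The 9 genes were chosen with these values known, so nothing is read from these ranks. In the authors' deposited table the q-value was listed as 0 for Camk2a, Syt4 and Slc17a7, was 3.51e-11 for the stronger Syn2 row, 8.80e-11 for Sv2a, 2.58e-07 for Thy1 and 1.11e-05 for Scg2, and was 0.000303 for Rab3c and 0.0127 for the weaker Syn2 row. Each compares 1 library with 1 library as far as the labels show.

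**Figure D3:**
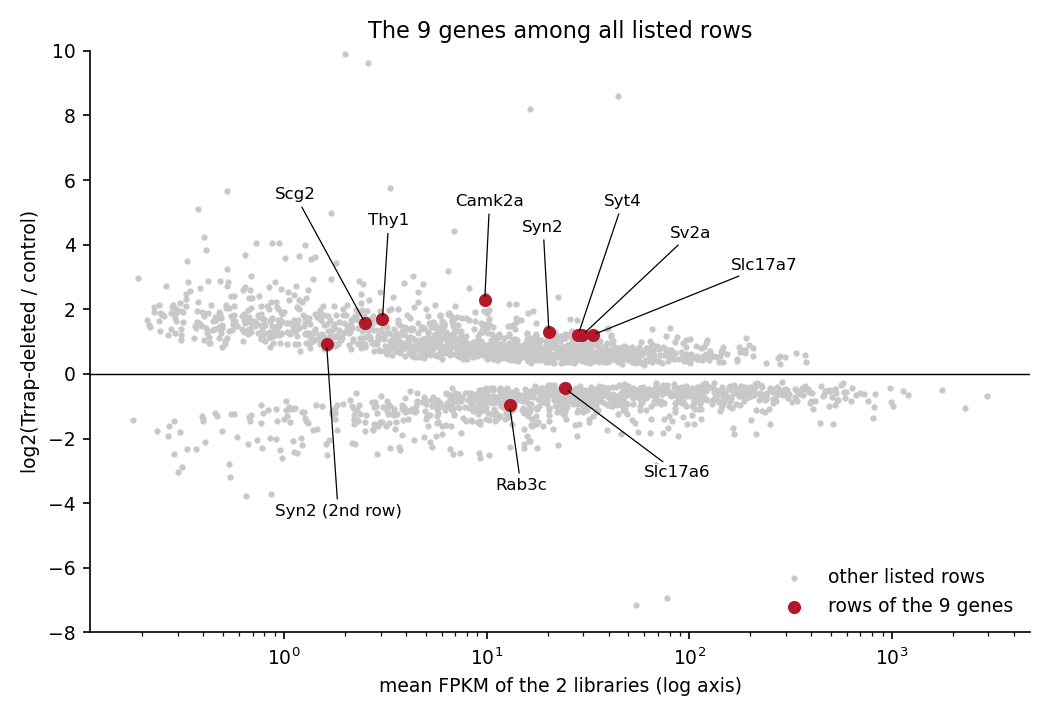
Each point is 1 of the 2376 listed rows with values in both libraries, with the mean FPKM on a log axis and log2(Trrap-deleted/control) upright, and the 10 rows of the 9 genes in red. Camk2a lies near the upper edge of the rows of its level at 2.28, Thy1 and Scg2 lie to the left where listed differences are wider, and Slc17a6 at -0.45 lies near the empty band around 0 that the authors' test left.

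For each gene, the listed gene nearest in log2 fold change was sought among rows within 2-fold of it in each library, a likeness that rests on 2 libraries only. It was Sncb for Camk2a (log2 fold change 2.16, a difference of 0.12), Tmem176a for Thy1 (1.68), Tom1 for Scg2 (1.58), Negr1 for Syn2 (1.27), Ctsb for Syt4 (1.21), Clu for Slc17a7 (1.20), Cdh8 for Sv2a (1.19), Mtss1 for Slc17a6 (-0.45) and Gpr137b for Rab3c (-0.98). For the last 8 the difference in log2 fold change was at most 0.014. Each was picked as the smallest among the rows searched, so these small differences follow from the search.

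Beyond the 9 genes, the genes of the synapse, of secretion and of late neuronal maturation that were listed were mostly higher. The 11 lists and families of this kind held 242 symbols besides the 9, of which 60 were listed, 50 higher (83.3%) and 10 lower. Their median log2 fold change was 0.84, and 45 were higher when the median of all listed rows was set to 0. Against this, 58.0% of all rows were higher, with a median of 0.54. Median log2 fold changes without the 9 genes differed by list. They were 0.62 for fusion and the active zone, 0.68 for vesicle endocytosis and 0.67 for the postsynaptic density and glutamate receptors. These lay nearer to the 0.54 of all rows than the medians of synaptic vesicle proteins (1.12) and late maturation (0.89). The synaptotagmins, at 0.36 over 4 genes, lay below the 0.54 and fell to -0.18 after the median rescaling. Dense core vesicles and peptide processing gave 0.77, the Rab3 and Rab27 cycle 1.02, CaM kinases and calmodulin signalling 0.57 and the inhibitory synapse 1.16 over 2 genes. No vesicular transporter gene was left. Within the FPKM ranges of the 11 lists, the 9 genes included, 55.5% to 67.9% of rows were higher. These lists were chosen with earlier results of the same table known. The shares are given as a description and were not tested.

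Among 24 further synaptic vesicle proteins 12 were listed and 10 were higher, 9 after the median rescaling. Sncb, beta-synuclein, was at 22.9 FPKM in the Trrap-deleted library and 5.11 FPKM in the control (4.48-fold). Syp, synaptophysin, chosen after its value was seen, was at 119 FPKM in the Trrap-deleted library and 54.3 FPKM in the control. The 2 that were lower were the synaptotagmins Syt5 and Syt2. Of 30 genes of fusion and the active zone 5 were listed, 4 higher, or 3 after that rescaling. Rimbp2, a scaffold of the active zone, was at 1.90 FPKM in the Trrap-deleted library and 0.896 FPKM in the control. The remaining 25, among them Snap25, Stx1a, Bsn and Pclo, were not listed. All 5 listed genes of 19 for vesicle endocytosis were higher, with Pacsin1 at 7.93 FPKM in the Trrap-deleted library and 2.29 FPKM in the control, the clathrin light chain gene Cltb at 29.5 FPKM in the Trrap-deleted library and 17.04 FPKM in the control, and the endophilin gene Sh3gl2 at 41.0 FPKM in the Trrap-deleted library and 25.6 FPKM in the control.

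On the receiving side, 10 of 48 genes of the postsynaptic density, glutamate receptors and their adhesion partners were listed, 7 higher and 3 lower, or 6 higher after the median rescaling. Dlgap3, a scaffold protein, was at 5.50 FPKM in the Trrap-deleted library and 1.95 FPKM in the control, and Nrxn2, a neurexin of the presynaptic side, at 56.2 FPKM in the Trrap-deleted library and 27.97 FPKM in the control. Lrrtm2, a postsynaptic partner of neurexins, was at 4.92 FPKM in the Trrap-deleted library and 2.71 FPKM in the control. Homer3, a scaffold of metabotropic receptors, was lower, at 13.6 FPKM in the Trrap-deleted library and 35.7 FPKM in the control, as were Dlgap4 (1.03 FPKM in the Trrap-deleted library, 2.43 FPKM in the control) and the kainate receptor gene Grik3 (9.17 FPKM in the Trrap-deleted library, 12.4 FPKM in the control). Of 18 genes of the inhibitory synapse 2 were listed, both higher, among them the glycine receptor gene Glrb, at 20.0 FPKM in the Trrap-deleted library and 7.64 FPKM in the control.

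Most listed genes of late maturation were higher, and the listed genes of young postmitotic neurons were lower. Of 34 late maturation genes other than Thy1, 14 were listed and 12 were higher under each scaling. Cntn1, contactin 1 of axons and glial contacts, was at 10.1 FPKM in the Trrap-deleted library and 2.82 FPKM in the control. The 2 that were lower were Uchl1 (138 FPKM in the Trrap-deleted library, 220 FPKM in the control) and the microtubule protein gene Mapt (44.1 FPKM in the Trrap-deleted library, 70.3 FPKM in the control). Of 30 genes of young neurons and axon growth 15 were listed and all 15 were lower. Their median log2 fold change was -0.67, and under the rescaling to equal summed FPKM 1 of them, Neurod6, turned higher. The largest differences were in Stmn1, a regulator of microtubules, at 258 FPKM in the Trrap-deleted library and 762 FPKM in the control, and Dpysl3, a growth cone protein, at 127 FPKM in the Trrap-deleted library and 374 FPKM in the control, followed by Stmn2, a relative of Stmn1 in growing axons, at 53.9 FPKM in the Trrap-deleted library and 158 FPKM in the control. These genes were abundant, and of the 1428 rows within the range of their mean FPKM 47.6% were higher, against 57.9% of the 1928 rows within the range of the late maturation genes. The difference between these lists was not tested.

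**Figure D4:**
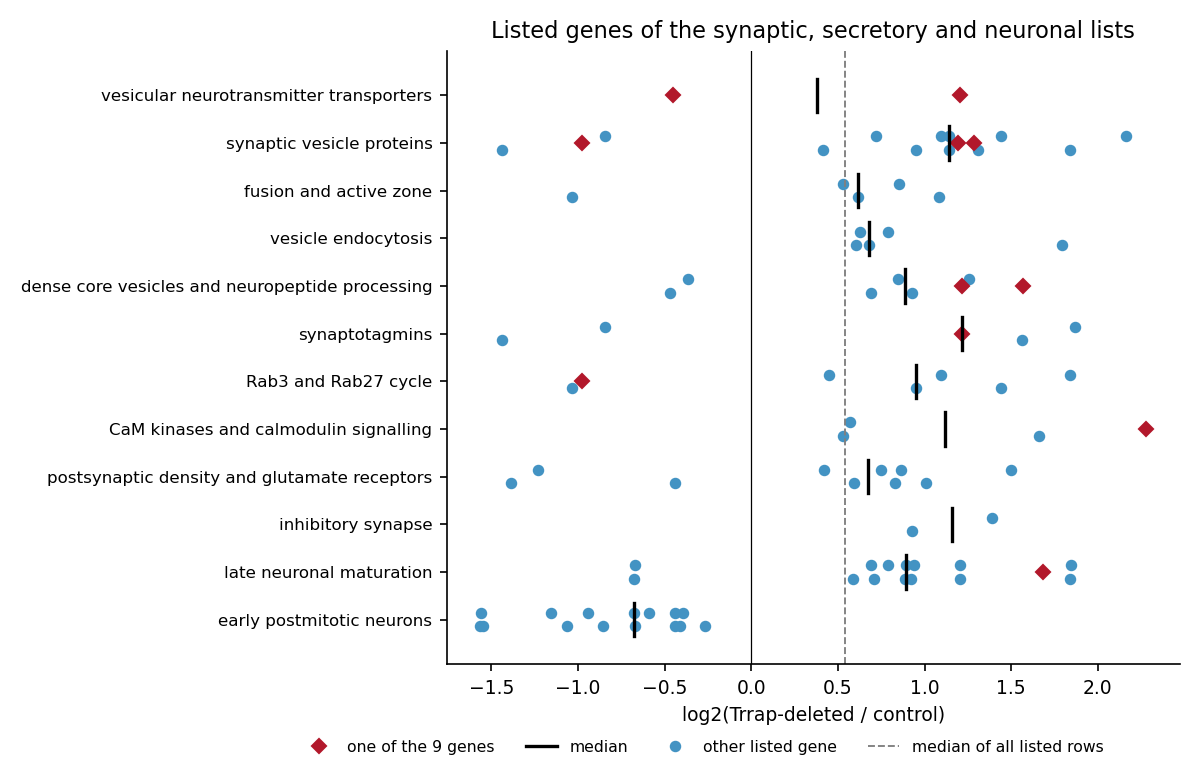
Each point is 1 listed gene, placed by log2(Trrap-deleted/control) in the row of each list it belongs to, with the 9 genes as red diamonds, other genes as blue points, the median of each list as a black bar and the median of all listed rows (0.54) as a dashed line. The points of the young neuron list all lie left of 0. In the other lists most lie right of it, except among the vesicular transporters, where Slc17a7 lies right and Slc17a6 left.

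Other features of the libraries differed along with the 9 genes. Trrap had no row, so the deletion could not be checked in its transcript. The cortical projection neuron genes Neurod6 (260 FPKM in the Trrap-deleted library, 312 FPKM in the control) and Fezf2 (42.5 FPKM in the Trrap-deleted library, 55.9 FPKM in the control) were abundant in both libraries, while Pax6, Sox2 and Tbr1 were not listed. Of 17 microglial markers 10 were listed and all were higher, with summed levels of 32.4 FPKM in the Trrap-deleted library and 12.6 FPKM in the control and the largest differences in Fcgr3 (log2 fold change 2.06) and C1qc (1.56). Of 15 meningeal markers 8 were listed and 7 were higher, most of all Lum (5.66) and Col1a1 (4.05) (29.5 FPKM in all in the Trrap-deleted library, 23.0 FPKM in the control). The exception, Fn1, held much of these sums, at 12.2 FPKM in the Trrap-deleted library and 19.9 FPKM in the control. Lum was at 1.02 FPKM in the Trrap-deleted library and 0.0203 FPKM in the control. Col1a1 was at 1.37 FPKM in the Trrap-deleted library and 0.0825 FPKM in the control, so both folds rest on control values near 0. Of 14 astrocyte and oligodendrocyte markers 5 were listed and 4 were higher, with sums of 61.6 FPKM in the Trrap-deleted library and 26.6 FPKM in the control and the largest difference in Aldh1l1 (11.7 FPKM in the Trrap-deleted library, 1.27 FPKM in the control). Of 14 endothelial and pericyte markers 2 were listed, both higher (4.24 FPKM in all in the Trrap-deleted library, 2.07 FPKM in the control). They were Pdgfrb (log2 fold change 1.07) and Cspg4 (0.85), and Cspg4 is also 1 of the 4 higher astrocyte and oligodendrocyte markers. The endothelial genes Pecam1, Cdh5 and Kdr were not listed. Of 11 erythroid markers Hbb-y alone was listed (157 FPKM in the Trrap-deleted library, 96.8 FPKM in the control). Of 15 markers of the ventral telencephalon 5 were listed and 4 were lower, most of all Dlx5 (-2.61) and Dlx2 (-2.45) (25.3 FPKM in all in the Trrap-deleted library, 34.5 FPKM in the control). Of 15 cortical progenitor markers 4 were listed, 2 higher and 2 lower, or 1 higher after the median rescaling, with Prom1 at -1.58 and Slc1a3 at 0.84 (562 FPKM in all in the Trrap-deleted library, 777 FPKM in the control), and of 9 Cajal-Retzius markers Nhlh2 alone was, at 6.41 FPKM in the Trrap-deleted library and 12.3 FPKM in the control. Of all rows within the FPKM range of each of these lists, 75.7% were higher for the microglial and 68.7% for the meningeal markers. The shares were 68.2% for the astrocyte and oligodendrocyte, 78.6% for the endothelial and pericyte, 69.3% for the ventral and 45.7% for the progenitor markers. Rows at 0 in either library were left out before counting. A marker, or a sex-linked transcript below, with such a row therefore counts as not listed. Of 5 sex-linked transcripts 4 were listed: Eif2s3y was at 32.8 FPKM in the Trrap-deleted library and 0.111 FPKM in the control, with Ddx3y and Kdm5d likewise, and Xist was at 142 FPKM in the Trrap-deleted library and 313 FPKM in the control. The listed Y-linked transcripts were thus nearly absent from the control, and the sex make-up of the libraries differed along with the genotype. The part of all these differences in the values of the 9 genes was not tested. With 1 library per genotype they cannot be told apart from the genotype.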

How the data were processed

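RNA sequencing of 2 cortex samples was used, 1 per genotype. Per the labels' protocols, about 2.5 µg of total RNA from an RNeasy Lipid Tissue kit went into each TruSeq library. Per the submitters' processing notes, reads were aligned with TopHat2 to mm9. How fragments were counted and tested, and whether strand was used, is not stated in the sources used here. The 2 value columns were deposited by the authors and read as FPKM from the column layout, which does not write the unit. The p-value, the q-value and the test statistic, a score, are the authors' deposited values; the sign of the statistic is opposite to that of the fold change in all 2376 rows with values in both libraries. The deposited log2 fold change matched log2 of Trrap-deleted over control FPKM to within 1.18e-05, and the value computed from FPKM was used. Of the 2381 rows 1 was at 0 in the Trrap-deleted library and 4 were at 0 in the control library; these were left out of folds. No read totals are known, so the depth and the precision of each value are unknown.

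The 9 genes and the 21 lists (404 symbols) were chosen with earlier results of these data known. Genes were named by rule: the 9 genes, up to 3 largest increases and 3 largest decreases of each list with at least 1 FPKM in the higher library, up to 2 per marker list, and the nearest pattern to each of the 9; some genes that the rule names are not reported here. Further genes were named after their values were seen: Syp, Chga, Syt2, Sv2b, Camk2n1, the overlapping genes, the sex-linked transcripts, Neurod6, Fezf2, Fn1 and Cspg4. Each list symbol had 1 row, the one with the higher mean FPKM. Rows of several symbols and rows at 0 in either library were left out of lists. GENCODE M21 (GRCm38) gave strands, lengths and overlaps by symbol for all 9 genes, and no coordinates were converted. Python 3.11.15, pandas 2.3.3, numpy 2.4.6 and matplotlib 3.10.9 were used, and the code was tested on simulated data. Alternatives were other scalings, a pseudocount of 1 FPKM, a q-value under 0.01, a minimum of 5 FPKM, and the other or summed Syn2 rows.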

Additional observations from a re-analysis of the deposited data

How the results depend on the processing

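The counts of 7 genes higher and 2 lower were the same under both rescalings and with 1 FPKM added. Each rescaling moved all rows by 1 constant taken from listed rows only, -0.54 or 0.35. Adding 1 FPKM to both values cannot reverse a direction. With the fold changes as deposited, these unchanged counts follow from arithmetic and are no independent check. The counts were also the same with the other or the summed rows of Syn2. At a q-value under 0.01 Slc17a6 was no longer listed, leaving 1 gene lower. At a minimum of 5 FPKM in the higher library 5 genes were higher and 2 lower, without Thy1 and Scg2. The median log2 fold change of the 9 genes, 1.22 as deposited, was 0.67 with the median of listed rows set to 0, 1.56 at equal summed FPKM, 1.17 with 1 FPKM added, 1.25 at a q-value under 0.01 and 1.20 with the weaker Syn2 row; with the summed Syn2 rows it did not move. Adding 1 FPKM lowered Scg2 to 1.07, Thy1 to 1.21 and Camk2a to 1.99. The 57 of 69 listed symbols higher in the synaptic and maturation lists became 52 with the median set to 0, 44 of 50 at a q-value under 0.01, 45 of 54 at the minimum of 5 FPKM and, in an alternative chosen after the data were seen, 50 of 60 without the 9 genes. The median of the vesicular transporter list, 0.38 over 2 genes, turned to -0.17 with the median of listed rows set to 0, by the construction of that shift. No library could be left out. No paired analysis was possible because each genotype had 1 library and the labels give no shared replicate numbers. The unknown depth limits the weak genes, Scg2, Thy1 and the weaker Syn2 row, most.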

Other observations

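In the table, 9 symbols had a pair of rows at identical coordinates, and in 8 of the 9 pairs both rows went the same way. Prkcb, a protein kinase C gene of neurons, had 26.8 FPKM in the Trrap-deleted library and 6.90 FPKM in the control in its stronger row, and 6.42 FPKM in the Trrap-deleted library and 1.93 FPKM in the control in its weaker row. Hdac11, a histone deacetylase gene, had 19.9 FPKM in the Trrap-deleted library and 10.5 FPKM in the control in its stronger row, and 1.85 FPKM in the Trrap-deleted library and 0.908 FPKM in the control in its weaker row. The exception was Gm10480, with log2 fold changes of 0.62 in the stronger and -2.26 in the weaker row. These pairs were looked at after the Syn2 rows had been seen.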
